A study of Mus musculus with 5 samples.

Results

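The genes described here are the replication-dependent histone genes of the mouse, taken as the autosomal protein-coding genes of genome build mm9 whose symbols start with Hist1h, Hist2h, Hist3h or Hist4h. This rule gave 67 genes of 21410 autosomal protein-coding genes, and it used gene names alone and no measured value. They comprised 6 genes of the linker histone H1 and 61 genes of the core histones, of which 19 encode H2A, 18 H2B, 11 H3 and 13 H4. For each gene, the places listed as enriched at most 1 kb from an annotated transcription start (TSS) were taken from 3 lists, 1 for Cxxc1 and 1 for trimethylation of lysine 4 of histone H3 (H3K4me3) in each of the 2 genotypes.

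Cxxc1 (CXXC finger protein 1) binds unmethylated CpG in DNA and is part of the Setd1 complexes that place H3K4me3, a mark found at active and poised promoters. The study mapped Cxxc1 in DP thymocytes, the CD4+CD8+ precursors of T cells, and asked what happens to H3K4me3 without it. WT animals were Cxxc1 fl/fl mice, and Cxxc1-deficient animals were Cxxc1 fl/fl hCD2-Cre mice, in which Cre is driven from the human CD2 promoter and acts in early thymocytes and also in other immune cells. The mice were a few weeks old, and whether cells of several animals were pooled for a library is not given in the sources used here. The Cxxc1-deficient samples are KO by title but Cxxc1+/- by genotype label, and the grouping here follows the titles. The Cxxc1 list carries no genotype in its name, and the study's methods place it in WT cells. The Cxxc1 library of Cxxc1-deficient cells and the WT input were not analysed here. Each list came from 1 library. There was therefore no replicate check, no test between genotypes and no p-value, and all intervals given are 95% intervals for counting error only (Wilson for shares, exact Poisson for tags).

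In every S phase a cell must make as much histone as it makes DNA, and most of this supply comes from genes that lie in clusters, mostly carry no introns and are transcribed mainly while DNA is copied. Their mRNAs end in a short stem-loop in place of a poly(A) tail, and this stem-loop is bound by Slbp. Transcription depends on Npat, which is activated by cyclin E and Cdk2 and which gathers at the clusters in the nucleus. The core histones form the nucleosome, around which DNA is wrapped, and H1 binds the linker DNA where it enters and leaves. In the thymus, cell division is most intense in the blasts that have just passed the pre-TCR checkpoint, and most DP thymocytes that follow are small cells at rest.

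The values are tags per 1000000 mapped tags (RPM) in 200-bp windows. Windows are listed only inside enriched regions, so that for a gene without a listed window the signal is not known and must not be read as 0. The step between values placed the libraries at 9.099 to 9.116 M tags for Cxxc1, 9.461 to 9.47 M tags for WT H3K4me3 and 9.443 to 9.452 M tags for Cxxc1-deficient H3K4me3. A tag was thus worth about 0.11 RPM in every list. Because RPM is scaled to the tags of each library, it cannot show a change in total H3K4me3 between the genotypes. The study reported less total H3K4me3 in Cxxc1-deficient DP thymocytes. Of 11 marker genes of DP thymocytes in the annotation, 6 had listed H3K4me3 in WT cells, 54.5% (28% to 78.7%), against 32.5% of all autosomal genes. In Cxxc1-deficient cells 3 had it, 27.3% (9.75% to 56.6%), against 6.1%. Cd4, Cd3d, Rag2 and Themis had none in either, and Rag1 was listed in Cxxc1-deficient cells alone, at 0.7 RPM (7 tags). None of 4 B cell, 4 myeloid and 3 thymic epithelial markers was listed in any list, whereas 1 of 3 erythroid markers, Klf1, was listed in WT cells at 0.9 RPM (9 tags). The WT intervals for 0 of 4 (0% to 49%) and 0 of 3 (0% to 56.1%) held the share of all genes, as did that of the DP markers. In Cxxc1-deficient cells the interval of the DP markers lay above the 6.1%, but it overlapped the intervals of the other lineages. These marker lists are therefore too small to tell the lineages apart.

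The label replication-dependent was checked against the sequence behind each coding region. The histone stem-loop was searched on the transcribed strand within 150 bp past the coding end, as 16 bases that open with GG, close with CC and hold CTTTT and AG with 1 free base between them at the same places as in the sequences below. It was found for 61 of the 67 genes, in 6 of 6 H1, 17 of 19 H2A, 16 of 18 H2B, 10 of 11 H3 and 12 of 13 H4 genes, against 2 of the 21343 other autosomal genes. The 61 matches had 6 distinct sequences, and 39 genes shared the same 16 bases. The genes without a match were Hist2h2be, Hist2h2bb, Hist1h2an, Hist1h3g, Hist1h4a and Hist1h2al. The sequences below are those of Hist1h1b, the only gene of the family listed for H3K4me3 in both genotypes, and of the genes of H2A, H3 and H4 with a match and with the most WT H3K4me3, with the stem-loop in capitals and 5 bases on either side. No H2B gene with a match was listed in WT cells.
Hist1h1b (chr13:21871701-21871726, minus strand): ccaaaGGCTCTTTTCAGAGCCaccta
Hist2h2ac (chr3:96024336-96024361, minus strand): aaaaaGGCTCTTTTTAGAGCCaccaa
Hist1h3a (chr13:23853754-23853779, minus strand): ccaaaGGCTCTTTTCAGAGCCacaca
Hist4h4 (chr6:136752514-136752539, minus strand): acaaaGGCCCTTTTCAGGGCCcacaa

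The family is also repetitive, which matters for what the lists can hold, since the reads were 50 bases long and only uniquely mapped reads were used. The first 60 coding bases of 4 H4 genes show this, with capitals at the bases that differ from Hist1h4m. Hist1h4m and Hist1h4n were identical over this stretch, Hist1h4a differed at 5 bases and Hist4h4, which lies alone on chromosome 6, at 11.
Hist1h4m (chr13:21903653-21903712, plus strand): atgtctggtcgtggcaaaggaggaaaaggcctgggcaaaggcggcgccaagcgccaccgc
Hist1h4n (chr13:21923968-21924027, minus strand): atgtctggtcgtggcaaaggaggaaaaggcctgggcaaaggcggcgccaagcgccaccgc
Hist4h4 (chr6:136752841-136752900, minus strand): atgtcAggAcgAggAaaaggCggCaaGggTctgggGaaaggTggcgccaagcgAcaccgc
Hist1h4a (chr13:23852967-23853026, minus strand): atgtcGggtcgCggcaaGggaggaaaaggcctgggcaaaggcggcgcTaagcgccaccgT

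Across whole coding sequences, the 13 H4 genes had 12 distinct sequences of 309 bp and a median identity of 93.9% (range 85.4% to 100%). The identity was higher among the 15 H2A genes of 390 bp (median 96.7%), the 13 H2B genes of 378 bp (97.2%) and the 10 H3 genes of 408 bp (97.5%). The H1 genes differ in length and could not be compared in this way.

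H3K4me3 was listed at few histone genes in WT DP thymocytes. A listed window lay within 1 kb of a TSS for 12 of 67 genes, 17.9% (10.6% to 28.7%), whereas 32.5% of all autosomal genes had one. Neighbouring histone genes share windows, so that these genes are not independent of each other, and counts with shared promoters joined are given below. In Cxxc1-deficient cells 3 histone genes were listed, 4.48% (1.53% to 12.4%), against 6.1% of all autosomal genes. Only Hist1h1b was listed in both genotypes, 1.49% of the family against 4.15% of all genes. No histone gene was listed for Cxxc1 (0% to 5.42%), where 2.03% of all genes were. Neither genotype had a listed window at 53 of the 67 genes, 79.1% (67.9% to 87.1%). Most autosomal genes had none either, since 32.5% were listed in WT cells and a further 1.96% in Cxxc1-deficient cells alone.

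**Figure D1:**
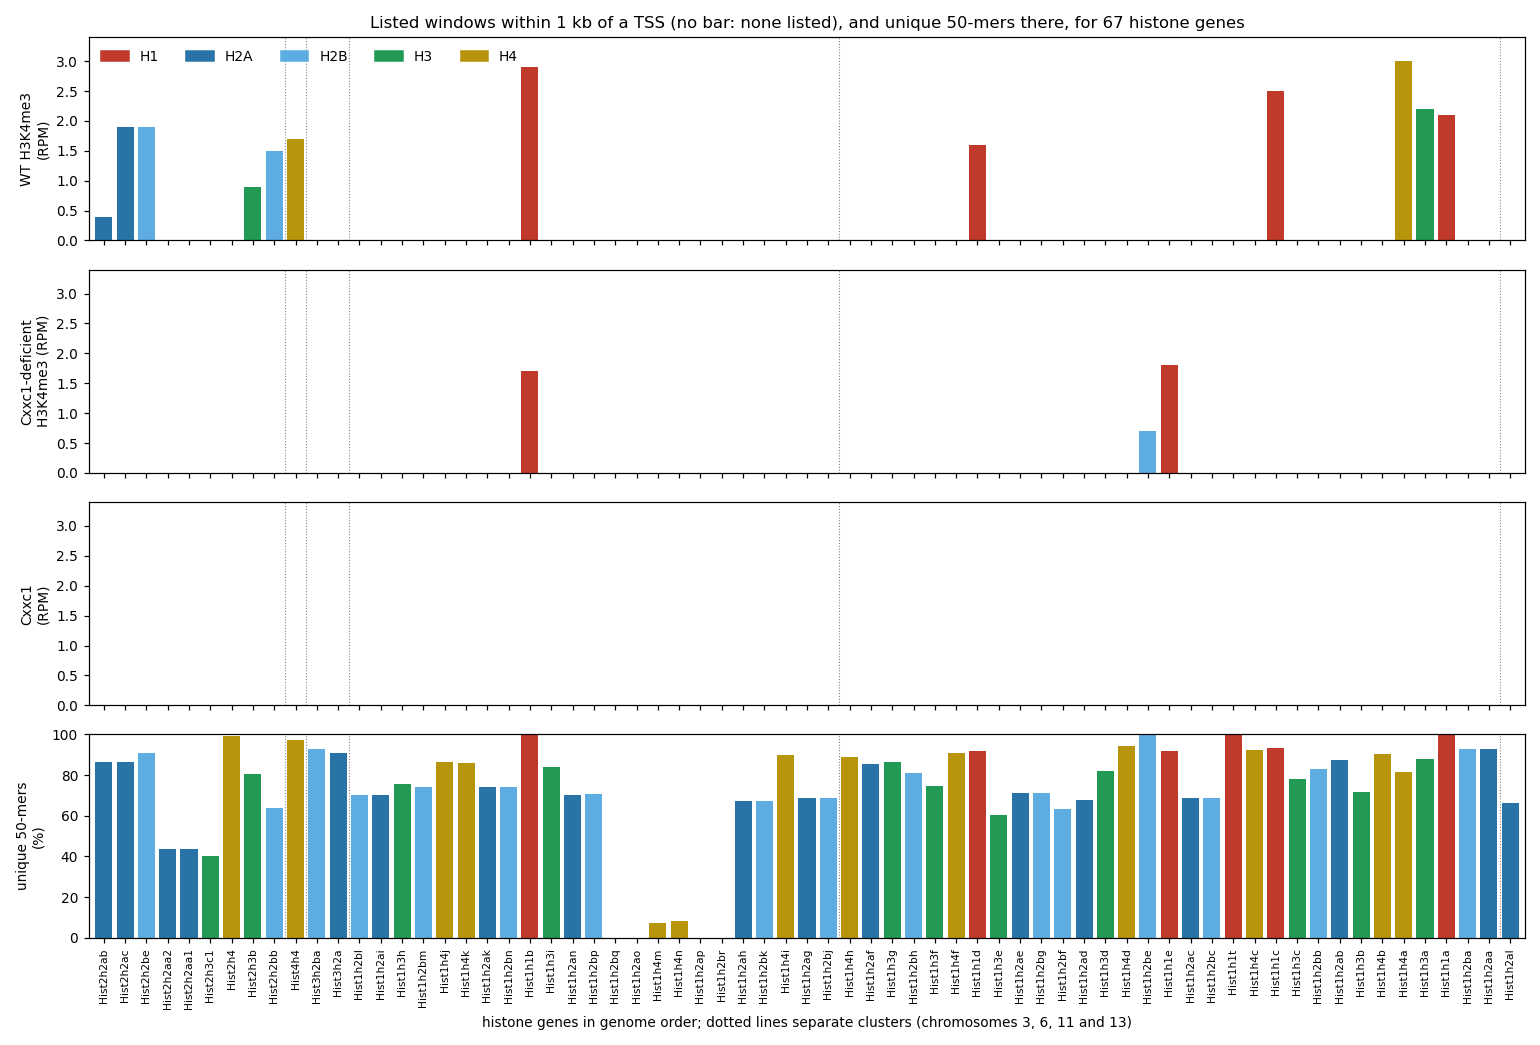
Summed RPM of the listed windows within 1 kb of a TSS for the 67 histone genes in genome order (panels 1 to 3: WT H3K4me3, Cxxc1-deficient H3K4me3 and Cxxc1) and the percentage of 50-mers there that occur once in the genome (panel 4), with bars coloured by histone class and no bar where no window is listed. WT bars stand at 12 genes, Cxxc1-deficient bars at 3 and no bar for Cxxc1.

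The linker histone genes were listed more often than the core histone genes. In WT cells 4 of 6 H1 genes had a listed window, 66.7% (30% to 90.3%), and 8 of 61 core histone genes, 13.1% (6.8% to 23.8%), with intervals that did not overlap. With joined promoter regions as the unit the core classes had 4 of 36, 11.1% (4.41% to 25.3%), and the H1 genes still 4 of 6. In Cxxc1-deficient cells the counts were 2 of 6 and 1 of 61. In either genotype 5 of 6 H1 genes were listed, and the remaining gene, Hist1h1t, encodes the H1 variant of the testis. Among the core classes the WT counts were alike, with 2 of 19 H2A, 2 of 18 H2B, 2 of 11 H3 and 2 of 13 H4 genes. The classes also differed in how much of their sequence is unique, and the counts among genes of highly unique sequence are given below.

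Hist1h1b, which encodes linker histone H1.5 (chr13:21871752-21872494, minus strand), had 2.9 RPM in WT cells (29 tags, 19.4 to 41.6) and 1.7 RPM in Cxxc1-deficient cells (17 tags, 9.9 to 27.2). The WT peak spanned chr13:21871201-21872800 and held 32 tags, and the Cxxc1-deficient peak spanned chr13:21870801-21872600 and held 25 tags. Of the windows near its TSS, 5 were listed in both genotypes, and WT was higher in 5 of 5, with 25 tags (16.2 to 36.9) against 14 tags (7.65 to 23.5). Outside this count, chr13:21871601-21871800 was listed in Cxxc1-deficient cells alone (3 tags) and chr13:21872601-21872800 in WT cells alone (4 tags). The counting intervals of the 25 and 14 tags overlapped, and adjacent windows of 1 library are not repeats of each other. All of the sequence within 1 kb of its TSS was unique.

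Of the other H1 genes, 4 were listed in 1 genotype and Hist1h1t in neither. Hist1h1c, which encodes H1.2, had 2.5 RPM in WT cells (25 tags, 16.2 to 36.9), and its peak at chr13:23830201-23832400 was the widest of those over the clusters, at 2200 bp. Hist1h1a, which encodes H1.1, had 2.1 RPM (21 tags, 13 to 32.1) and Hist1h1d, which encodes H1.3, 1.6 RPM (16 tags, 9.15 to 26), both in WT cells alone. Hist1h1e, which encodes H1.4 (chr13:23713624-23714371, minus strand), went the other way, with 1.8 RPM in Cxxc1-deficient cells (18 tags, 10.7 to 28.4) and no listed window in WT cells.

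Among the core histone genes, Hist1h4a had the most WT H3K4me3 of the whole family, 3 RPM (30 tags, 20.2 to 42.8). Its neighbour Hist1h3a followed with 2.2 RPM (22 tags, 13.8 to 33.3), and both drew on the peak at chr13:23852401-23854000. Hist1h3a further took 1 window of 5 tags from the next peak, chr13:23855201-23857000, which also served Hist1h1a. On chromosome 3, Hist2h2ac and Hist2h2be, an H2A and an H2B gene that start 241 bp apart in opposite directions, had the same 4 windows and thus the same value of 1.9 RPM (19 tags, 11.4 to 29.7). Hist2h2ab, with 0.4 RPM (4 tags), was listed only through the first window of that peak.

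Farther along, Hist2h2bb had 1.5 RPM (15 tags) and Hist2h3b, an H3 gene, 0.9 RPM (9 tags), and both were served by chr3:96073201-96074000. Hist4h4, an H4 gene alone on chromosome 6, had 1.7 RPM (17 tags, 9.9 to 27.2). The 12 listed genes therefore rested on 8 peaks. When promoter regions that overlap were joined, the family had 40 regions, of which 7 were listed in WT cells, 17.5% (8.75% to 31.9%), against 24.7% of 26144 such regions of all autosomal genes. In Cxxc1-deficient cells 2 regions were listed, 5% (1.38% to 16.5%), against 4.4%. Counted in this way, both intervals held the share of all such regions. Distant TSSs of a gene count as separate regions, so that all autosomal genes gave more regions than genes. Of the histone genes, 5 had several annotated TSSs, and the regions are therefore not like units. Whether the WT share of the family differs from that of all genes is not settled by this count.

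The median over the 12 genes was 1.9 RPM (95% order-statistic interval of the median 1.5 to 2.5). This interval held the 2.4 RPM over the 6950 listed autosomal genes. Genes that share windows are not independent in this median. Hist1h4a exceeded 72.3% and Hist1h1b 69.2% of the listed genes, whereas Hist2h2bb exceeded 8.24%. The lowest peak in each list held 1.1 RPM, and the weakest WT peak at a histone gene 1.5 RPM.

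**Figure D2:**
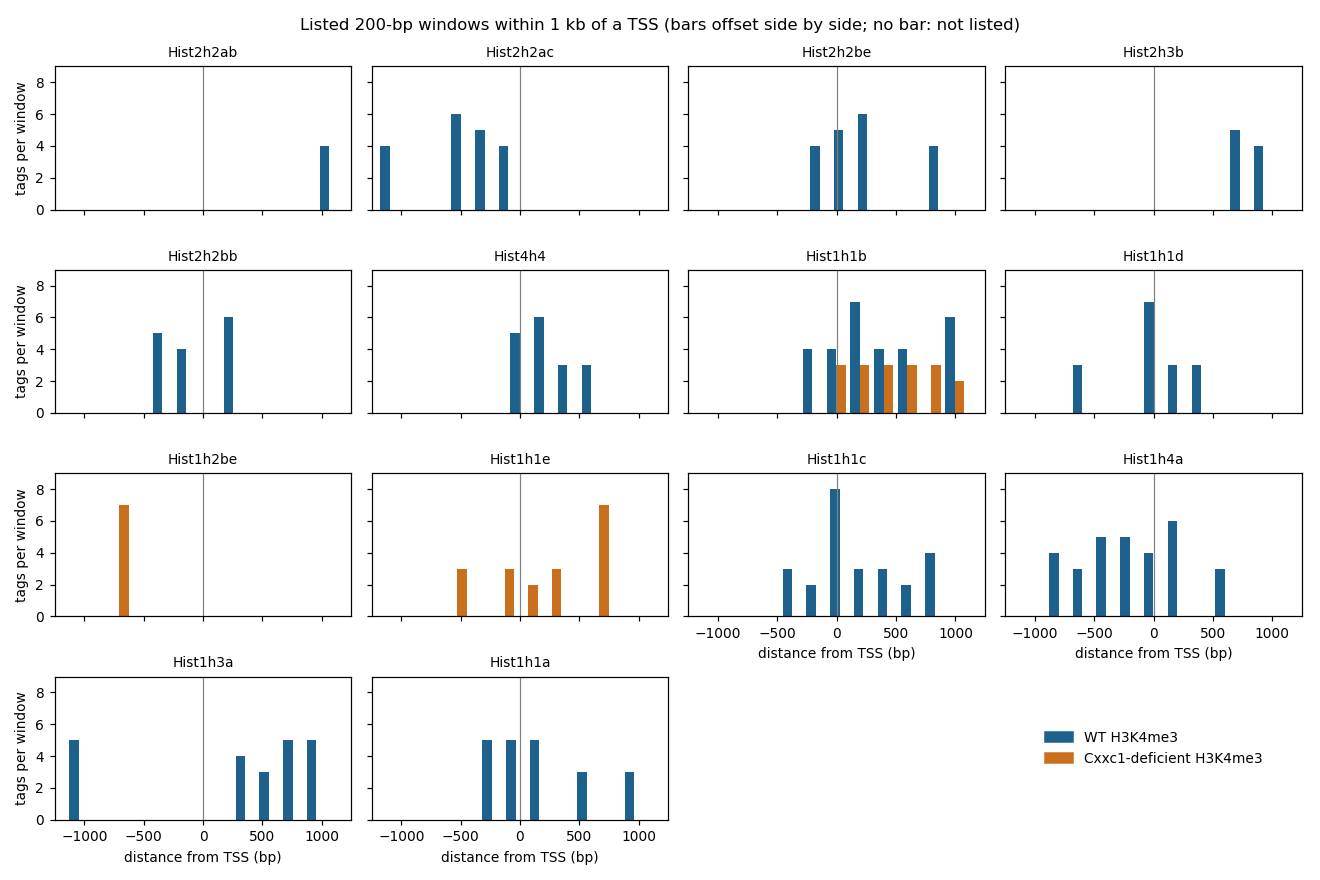
Tags in each listed 200-bp window against the distance of its midpoint from the TSS in bp, positive in the direction of transcription, for the 14 histone genes listed in either genotype, with blue bars for WT and orange bars for Cxxc1-deficient H3K4me3. No window held more than 8 tags, and bars of both colours appear for Hist1h1b alone.

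Within these regions the tags were few in any window. The highest was the window over the TSS of Hist1h1c, with 8 tags, and the window over the TSS of Hist1h1d had 7. At Hist1h1b the 6 WT windows held 4 to 7 tags and the 6 Cxxc1-deficient windows 2 or 3. For Hist2h3b, the H3 gene, both windows lay downstream, and at Hist1h3a 4 of 5 lay downstream. Peak shape could not be read further at this depth.

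Of the 12 histone genes listed in WT cells, 1 was also listed in Cxxc1-deficient cells, 8.33% (1.49% to 35.4%), against 12.8% of all listed genes. The other 11 were in the WT list alone, 16.4% of the family against 28.3% of all genes. Histone genes listed in Cxxc1-deficient cells alone numbered 2, Hist1h1e and Hist1h2be, 2.99% against 1.96% of all genes, and both drew on a peak of 18 tags at chr13:23713601-23715000. Hist1h2be, an H2B gene, had 0.7 RPM (7 tags, 2.81 to 14.4) in a window that it shared with Hist1h1e. Its annotated start lies 35168 bp from its coding sequence and 1378 bp from the start of Hist1h1e, so that this window says nothing of the H2B coding region itself. Of these 3 shares, that of the WT list alone had an interval (9.42% to 27.1%) just below the share of all genes, and the other intervals held it. With joined promoter regions as the unit, 6 of 40 were in the WT list alone, 15% (7.06% to 29.1%), an interval that held the 21.9% of all such regions.

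Peaks were also counted over the clusters. Joined within 500 kb, the genes formed 3 larger clusters, with 9 genes over 59.1 kb on chromosome 3 (chr3:96023839-96082924) and with 23 genes over 328 kb (chr13:21807632-22135545) and 31 genes over 404 kb (chr13:23622919-24026720) on chromosome 13. A pair lay on chromosome 11, and Hist4h4 on chromosome 6 and Hist1h2al on chromosome 13 lay alone. From the first to the last gene of each, the WT list had 12 peaks, the Cxxc1-deficient list 2 and the Cxxc1 list 1. Over the whole reference of 2716965481 bases these lists held 14237, 2979 and 4352 peaks, and whether the clusters differ in peak density was not tested. The cluster of 31 genes held 5 WT peaks over 7.8 kb, that of 23 genes 3 over 4.2 kb and that of 9 genes 3 over 2.8 kb, and the pair on chromosome 11 and Hist1h2al had none.

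Of the 12 WT peaks, 8 lay within 1 kb of a histone gene TSS and 1 at Pom121l2, which lies inside the cluster. The remaining 3 lay elsewhere, in the last exon of Hist2h2bb (chr3:96081801-96082600, 17 tags), in an intron of Prss16, which encodes a thymus-specific protease (chr13:22097601-22099000, 23 tags), and over the pseudogene Gm11338 (chr13:23820801-23821800, 17 tags). Both Cxxc1-deficient peaks were at H1 genes, Hist1h1b and Hist1h1e. The Cxxc1 peak (chr13:23968801-23969600, 13 tags, 6.92 to 22.2) lay in an intron of Slc17a1, a phosphate transporter gene, 56.8 kb from the nearest histone gene TSS. Of 11 other protein-coding genes inside the clusters, Pom121l2 alone had a listed promoter, with 1.5 RPM in WT cells.

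Because only unique reads were kept, the share of 50-mers that occur once in the genome, on either strand and without a mismatch, was counted within 1 kb of each TSS. Its median was 80.7% for the histone genes and 99.6% for all autosomal genes. By class it was 96.7% for H1, 70% for H2A, 70.8% for H2B, 78.3% for H3 and 90% for H4. Under 50% of the sequence was unique at 9 genes, and none of it at 4, the divergent pairs Hist1h2bq with Hist1h2ao and Hist1h2ap with Hist1h2br. No uniquely mapped read of this length can fall on those 4 promoters without a mismatch.

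**Figure D3:**
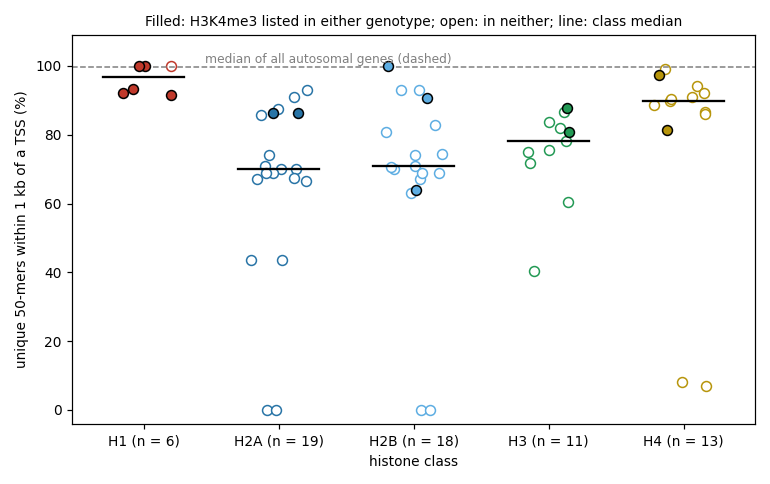
Percentage of 50-mers within 1 kb of a TSS that occur once in the genome, with 1 point per histone gene by class, filled where H3K4me3 was listed in either genotype and open where it was not, a line at each class median and a dashed line at the median of all autosomal genes. All 6 H1 genes lie at 91.6% or more, and 4 H2A and H2B genes lie at 0.

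The loss of unique sequence was centred on the coding regions. In the bins from 0 to 200 bp and from 200 to 400 bp downstream of the gene start, 50.3% and 40% of 50-mers were unique over the family, against 92.2% and 92.3% over all genes. Upstream, from 200 bp to the start, it was 87.4%. H3 genes fell lowest, to 23.7% between 200 and 400 bp, and H1 genes stayed at 77.6% there. H2A and H2B genes had a second low upstream, at 47.7% and 37.1% between 600 and 400 bp before the start, a stretch that holds the coding sequence of the partner in many divergent pairs. Coding sequence alone was 87.6% unique in H1, 39.3% in H4, 26% in H2A, 24.9% in H2B and 14.8% in H3.

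**Figure D4:**
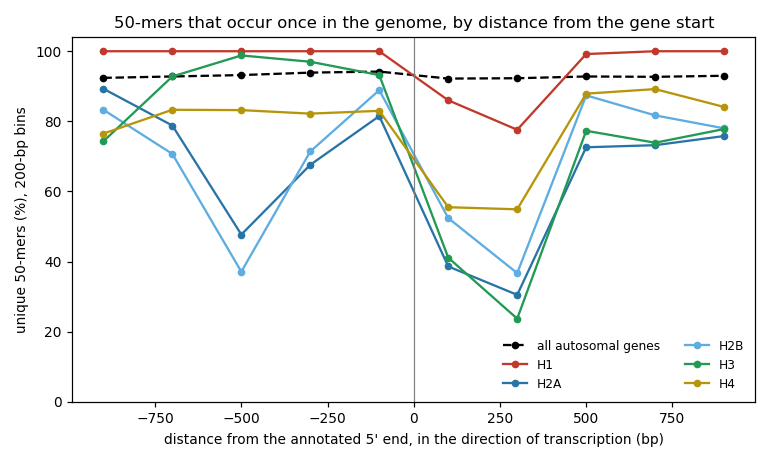
Percentage of unique 50-mers in 200-bp bins from 1 kb upstream to 1 kb downstream of the annotated gene start, by histone class (solid lines) and for all autosomal genes (dashed line). The core classes drop between 0 and 400 bp, H3 to 23.7%, and H2A and H2B drop again upstream, to 47.7% and 37.1%.

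Listed genes had more unique sequence than the rest. The median was 89.2% for the 12 genes listed in WT cells and 74.2% for the other 55. Of 18 histone genes with at least 90% unique 50-mers, 6 were listed in WT cells, 33.3% (16.3% to 56.3%), against 37.1% of all such autosomal genes. These 18 include all 6 H1 genes, and the interval also held the 17.9% of the whole family. In Cxxc1-deficient cells it was 3 of 18, 16.7% (5.84% to 39.2%), against 6.99%, and for Cxxc1 0 of 18, against 2.3%. Between 50% and 90%, 6 of 40 histone genes were listed in WT cells, 15% (7.06% to 29.1%), against 5.13% of all such genes. Under 50% none of 9 was, against 0.201%. The 6 genes share peaks with their neighbours, as do Hist1h1e and Hist1h2be among the 3 listed in Cxxc1-deficient cells. Joined promoter regions were not counted by these groups, so that no excess can be read from the intervals.

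Counted by gene, the WT interval of the whole family lay below the share of all genes. With joined promoter regions as the unit it held the share of all such regions, in which genes with distant TSSs count more than once. Among the genes of highly unique sequence the interval was wide and held both the share of all genes and the 17.9% of the whole family. The difference between H1 and the core classes in this group was 4 of 6 against 2 of 12 (16.7%, 4.7% to 44.8%), with intervals that overlapped. The 10 genes with at least 90% unique sequence and no listed window in either genotype were Hist2h4, Hist3h2ba, Hist3h2a, Hist1h4b, Hist1h4c, Hist1h4d, Hist1h4f, Hist1h1t, Hist1h2ba and Hist1h2aa. Of these, Hist1h1t, Hist1h2ba and Hist1h2aa encode histones known from the male germ line.

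**Figure D5:**
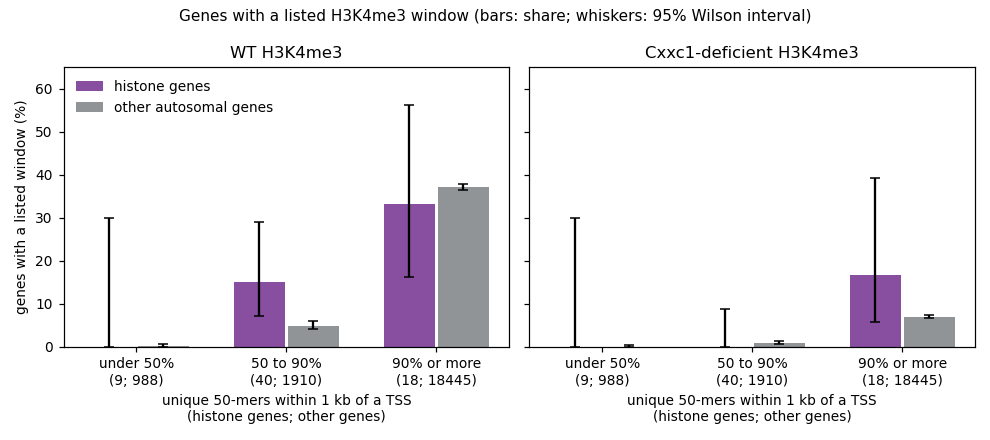
Percentage of genes with a listed H3K4me3 window within 1 kb of a TSS in WT (left) and Cxxc1-deficient cells (right), by the share of unique 50-mers, for histone genes (purple) and other autosomal genes (grey), with 95% Wilson intervals and the numbers of genes in brackets. In WT cells the share rises with uniqueness in both kinds of gene, and at 90% or more the WT histone interval of 16.3% to 56.3% holds the value of the other genes.

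Windows were counted in the same way. Since only unique reads were kept, a window of little unique sequence can hold few tags, so that this count is no independent support. Windows at the edges with too few scored 50-mers were left out. Of the remaining 509 windows within 1 kb of a histone gene TSS, 329 were at least 90% unique. Of these, 35, 10.6%, were listed in WT cells and 10, 3.04%, in Cxxc1-deficient cells. Of 121 windows under 50% unique, 3 were listed in WT cells, 2.48%, and they held 13 of the 172 WT tags. Windows that were at least 90% unique held 153 of them.

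The sequence within 1 kb of the histone gene TSSs was rich in CpG, the dinucleotide that the CXXC domain of Cxxc1 binds when unmethylated. For most of these short genes this span takes in the coding sequence, and the ratio was not measured for the upstream part alone. The ratio of observed to expected CpG within 1 kb of a TSS had a median of 0.751 in the family and 0.433 in all autosomal genes, with GC contents of 49.4% and 50.4%. Over all genes the ratio was higher where WT H3K4me3 was listed, 0.585 against 0.319. Within the family it was 0.756 for listed and 0.751 for unlisted genes. H1 genes, listed most often, had the lowest class median, 0.595, and H3 genes the highest, 0.82.

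Promoter sequences are given for Hist1h4a, which had the most WT H3K4me3, for Hist1h1b, listed in both genotypes, and for Hist1h1e, listed in Cxxc1-deficient cells alone. Each is the 250 bases upstream of the annotated start in mm9. Capitals mark matches, on either strand, to CCAAT, bound by NF-Y, to the TATA box as TATAAA, to the octamer ATTTGCAT, bound by Oct-1, and to AAACACA, an element of H1 promoters. No 2 matches overlapped in these sequences.
Hist1h4a (chr13:23853100-23853349, minus strand): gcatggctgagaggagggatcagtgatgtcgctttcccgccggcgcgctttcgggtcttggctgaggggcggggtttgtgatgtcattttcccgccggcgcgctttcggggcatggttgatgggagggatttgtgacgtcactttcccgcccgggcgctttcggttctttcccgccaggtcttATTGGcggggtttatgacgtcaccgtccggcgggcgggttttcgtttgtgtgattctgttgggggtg
Hist1h1b (chr13:21872495-21872744, minus strand): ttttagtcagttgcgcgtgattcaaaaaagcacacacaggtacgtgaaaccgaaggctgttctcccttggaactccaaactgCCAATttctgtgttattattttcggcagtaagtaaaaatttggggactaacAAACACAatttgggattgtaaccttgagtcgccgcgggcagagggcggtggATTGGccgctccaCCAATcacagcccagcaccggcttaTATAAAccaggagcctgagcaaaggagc
Hist1h1e (chr13:23714372-23714621, minus strand): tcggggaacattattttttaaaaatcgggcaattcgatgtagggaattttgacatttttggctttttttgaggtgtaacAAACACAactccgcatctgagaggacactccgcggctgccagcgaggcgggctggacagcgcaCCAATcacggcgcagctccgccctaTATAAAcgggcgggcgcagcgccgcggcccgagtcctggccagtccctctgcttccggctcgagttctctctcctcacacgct

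These 250 bases held 25 CpG in Hist1h4a, 22 in Hist1h1e and 11 in Hist1h1b. Hist1h4a had a reverse CCAAT and none of the other motifs, whereas both H1 promoters had the H1 element, at least 1 CCAAT on the forward strand and, nearest to the start, the TATA box. The annotated start of Hist1h1e lies 5 bp before its coding sequence, against 71 bp for Hist1h1b and 73 bp for Hist1h4a. Over the family, CCAAT was found in 85.1% of promoters, against 34.6% of all autosomal promoters of this length, and in 30.8% of the H4 promoters. TATAAA was found in 49.3% against 12.4%. The octamer was found in 22.4% against 1.63%, in 7 of 19 H2A and 8 of 18 H2B promoters and in no H1, H3 or H4 promoter. AAACACA was found in 5 of 6 H1 promoters, against 5.6% of all promoters. For 9 genes the annotated start lies at the first coding base, so that their windows may include untranslated sequence.

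Many of these promoters are shared. The family had 13 pairs of genes that start within 1 kb of each other in opposite directions, 12 of them an H2A with an H2B gene, at distances of 168 to 693 bp (median 241 bp). Of these, 1 pair, Hist2h2ac with Hist2h2be, had a listed window in WT cells and none in Cxxc1-deficient cells. In the other 12 pairs the share of unique 50-mers ran from 0% to 92.9%.

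Genes that act with the replication-dependent histones were then read in the same lists. Of 22 genes of histone supply (transcription, mRNA processing, chaperones and their cell cycle control), 14 were listed in WT cells, 63.6% (43% to 80.3%), against 32.5% of all autosomal genes and 37.1% of those with at least 90% unique 50-mers. In Cxxc1-deficient cells 3 were listed, 13.6% (4.75% to 33.3%), against 6.1% and 6.99%, and 2 were listed in both genotypes, 9.09% (2.53% to 27.8%), against 4.15% of all genes. The median unique share of the supply genes was 100%. These genes were chosen by name with earlier results of these data known, and an excess over all genes was not tested. Npat, the activator of the clusters, had 2.6 RPM in WT cells (26 tags), Slbp, the stem-loop binding protein, 1.5 RPM (15 tags) and Casp8ap2, a component of the histone locus body, 2.2 RPM (22 tags), all in WT cells alone. Hinfp, an activator of H4 genes, was in neither list. Those listed in both genotypes were Nasp, a chaperone of H1 and H3, with 2.4 and 2 RPM in WT and Cxxc1-deficient cells, and E2f1, a transcription factor of S phase entry, with 3.2 and 2.4 RPM. Asf1a, a chaperone of H3 and H4, was listed in Cxxc1-deficient cells alone, with 2.1 RPM.

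Of 18 genes of DNA replication, 5 were listed in WT cells, 27.8% (12.5% to 50.9%), and 2 in Cxxc1-deficient cells, 11.1% (3.1% to 32.8%), with none in both, and these intervals held the shares of all genes, 32.5% and 6.1%. Of 12 genes of histone variants, which are made outside S phase as well or in particular cells, 4 were listed in WT cells, 33.3% (13.8% to 60.9%) and so near the 32.5% of all genes, and none in Cxxc1-deficient cells (0% to 24.2%), where 6.1% of all genes were. H2afx, whose product is phosphorylated at DNA breaks, had 2.9 RPM and H3f3a, which encodes H3.3, 2.7 RPM. H2afz and H3f3b, widely used variant genes, were not listed in either genotype. No gene of the supply, replication and variant lists was listed for Cxxc1, where 2.03% of all genes were, and lists of this size could not show a difference from that share.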

How the data were processed

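ChIP-seq of DP thymocytes was read from 3 lists, with 1 library each. Per the study's methods and the labels, 50-bp reads (CASAVA 1.8.2) were mapped to mm9, unique reads were kept, and enriched regions were called with SICER 1.1 with Cxxc1-deficient ChIP and input as controls. The aligner, the handling of duplicates and the control used for H3K4me3 are not given in the sources used here, and each can change what is listed. The authors deposited 200-bp windows inside called regions with a value in RPM at 1 decimal.

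Windows overlapping the 1 kb on either side of any TSS (GENCODE vM1, mm9) were summed, and windows separated by at most 2 missing ones were joined into peaks. Tags were recovered by dividing each RPM value by the value of 1 tag, which was inferred from the decimals that occur. Unique 50-mers were counted over the whole genome. Python 3.11.15, numpy 2.4.6, pandas 2.3.3, scipy 1.17.1, numba 0.67.0 and matplotlib 3.10.9 were used, and functions were tested on simulated data.

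The genes and lists were chosen with earlier results of these data known. Genes named with values were the 10 with the most WT RPM and every gene listed in Cxxc1-deficient cells; Hist2h3b and Hist2h2ab, the other listed genes, were added, as were peaks and listed genes of the related lists. Counts were also made at other distances, with other TSSs, without windows of 2 tags or fewer, for genes with a stem-loop or at least 50% unique sequence, for joined promoters and with other rules for peaks.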

Additional observations from a re-analysis of the deposited data

How the results depend on the processing

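Of 47 alternative values for 8 results, 40 stayed within the margin set for a change (1.5 times for a count, the interval of the median for the median) and 7 moved. With joined promoter regions as the unit, 7 of 40 were listed in WT cells, since neighbouring genes share peaks. The interval of this share (8.75% to 31.9%) held the 24.7% of all such regions, in which distant TSSs of a gene count separately. With adjacent windows alone joined, the peaks over the clusters numbered 27 for WT H3K4me3, 5 for Cxxc1-deficient H3K4me3 and 2 for Cxxc1, and with peaks at or above the median strength of their list alone they numbered 5, 1 and 0. No paired analysis was possible because every list came from 1 library. Depth limits these lists: peaks of 1.1 RPM are the weakest listed, a gene not listed may carry weaker H3K4me3, and no difference between genotypes has a replicate.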
